A study of Mus musculus with 2 samples.

Results

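The genes described here are 35 genes of microglia and macrophages, read in mouse eye cups labelled as wild type and as knockout (KO) of the gene Mfsd2a. They were chosen by symbol, and each took the probe set (the group of array probes that reads one transcript) that was brightest over both arrays among those annotated with that symbol alone. All 35 had such a probe set, out of 18193 genes on the array. They were divided by role into 11 genes of resting microglia and of the signals that sustain them, 14 genes of lysosome and activation, and 10 general leukocyte genes. A gene is called dim when its intensity was below the median of all non-control probe sets on both arrays (94.2 for wild type, 93.4 for the other array). By this measure 20 members were above the floor and 15 were dim.

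The samples were labelled as wild-type mice and Mfsd2a KO mice, at postnatal day 13 and with no treatment. The tissue was the eye cup, which is the back of the eye with retina, pigment epithelium, choroid and sclera after removal of cornea, lens and optic nerve. Per genotype, RNA from 6 animals was combined into 1 pool and read on 1 Affymetrix 3' expression array, so that the comparison is 1 array against 1 array. The labels used here do not give the deleted part of Mfsd2a, the strain or the sex of the animals.

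Microglia are the resident macrophages of the retina. They seed the tissue early in development, depend on the receptor CSF1R and its ligands CSF1 and IL-34 for survival, and in a quiet state carry a set of surface receptors, among them CX3CR1 and P2RY12, through which they survey neurons. When they take up cell debris they raise lysosomal proteases and signal through adaptors such as TYROBP. The choroid and the vessel walls hold macrophages of their own, so RNA of a whole eye cup mixes these populations. Fewer cells of a type and less RNA per cell cannot be told apart in such RNA.

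Some values of the whole series bear on the direction of every difference given here. The 1 probe set of Mfsd2a read 181 in wild type and 244 on the other array, which goes against the knockout label, and where its probes lie relative to the deletion was not analysed here. The second sample is therefore called the array labelled knockout, and every direction rests on that label. Mycl (96.5 and 223, log2 difference 1.21) and Trit1 (323 and 666, 1.04), on the chromosome of Mfsd2a, were also higher on that array. So were Scd1 (166 and 384, 1.21) and Scd2 (3727 and 6351, 0.77), on chromosome 19. What these values say about the label was not tested. The pools also differed in sex-linked transcripts: Xist read 7055 and 4357, and Uty, a Y-linked gene, read 78.2 and 157. Lens genes leaned upward on the array labelled knockout, crystallins among them. Of 16 lens genes 12 were above 0, where 47.3% of all genes were, and the lens median log2 difference was 0.11. The part of sex make-up, dissection and array handling in the results was not tested, and with 1 pool per genotype they cannot be told apart from genotype. The tissue label was matched by strong signals of photoreceptors (Gnat1, 16823 and 15928), Mueller glia (Glul, 9678 and 9405) and pigment epithelium (Rpe65, 3484 and 3301). Of 15 tissue genes read for this check, 4 were above 0 and 11 below, with a median log2 difference of -0.041. At 1.2-fold 0 were higher and 1 was lower, Mlana (1118 and 918, -0.28), beside 2.23% and 3.37% of all genes.

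More of the 35 members were higher than lower in the pool labelled knockout, by small amounts. Of them 29 were above 0, 5 were below 0, and Trem2 had the same value on both arrays. Of all 18193 genes, 8604 (47.3%) were above 0 and 8878 were below. The median log2 difference (labelled knockout minus wild type) of the members was 0.21, where the median over all 18193 genes was 0. At a size of 1.2-fold, 12 members were higher and 0 were lower, while 2.23% of all genes were higher and 3.37% were lower by that size. At 1.3-fold 7 members were higher and 0 lower, beside 0.775% and 0.731% of all genes. At 1.5-fold 1 member, the dim gene Gpr34, was higher and 0 were lower, beside 0.115% of all genes in each direction. With 1 array per genotype no test of a gene was possible and no p-value is given.

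Brightness bears on these counts. The 20 members above the floor had a median of 0.23, and 7 of them reached 1.2-fold on the higher side and 0 on the lower, against 1.79% and 1.17% of the 11568 genes above the floor. One of the 7, Cd52, was above the floor only on the array where it was higher. Among the 15 dim members the median was 0.18 and 5 reached that size on the higher side and 0 on the lower, against 2.99% of the 6625 dim genes. Dim genes as a whole leaned the other way, with a median of -0.052 and 7.23% of them at least 1.2-fold lower. The spread between probe sets of the same gene, which is the only error these data give and is technical, had an SD of 0.089 log2 units above the floor (5201 genes with at least 2 such sets) and of 0.16 among dim probe sets (2950 genes). The members were proposed with earlier results of these arrays in view, so the counts describe the list and are not independent evidence of its direction.

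**Figure D1:**
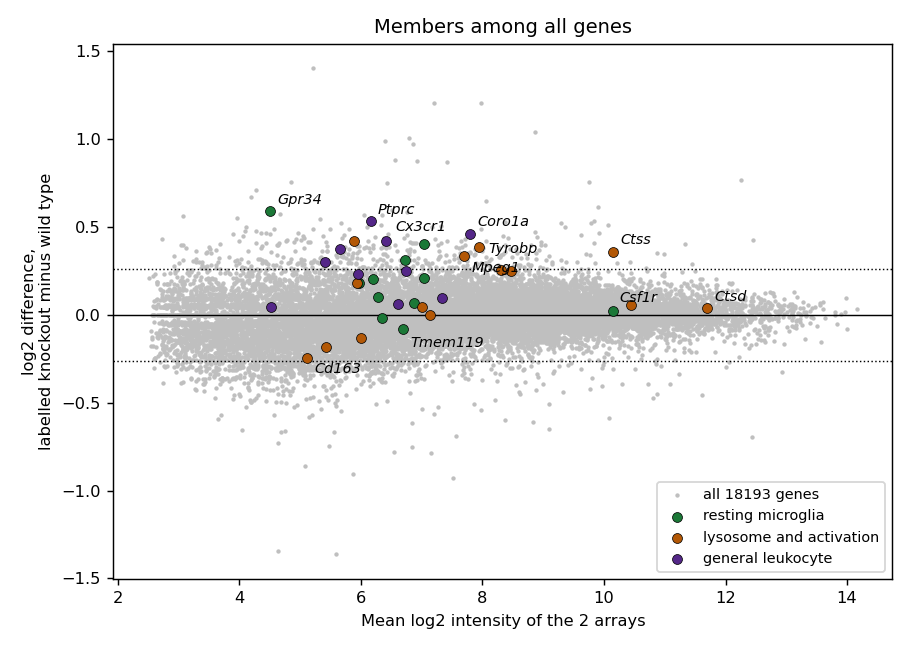
Each point is a gene, with the mean log2 intensity of the 2 arrays on the x axis and the log2 difference (labelled knockout minus wild type) on the y axis; grey points are all 18193 genes, coloured points the 35 members by class, and dotted lines mark 1.2-fold. The members lie mostly above 0, with 12 above the upper dotted line and 0 below the lower one.

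Resting microglia carried the largest single difference and also some of the smallest. This class of 11 genes had a median of 0.18, with 9 genes above 0 and 3 past 1.2-fold on the higher side. The shares over all genes were 47.3% above 0 and 2.23% at least 1.2-fold higher. Cx3cr1, the receptor for the neuronal chemokine fractalkine, read 114 in wild type and 151 on the array labelled knockout (log2 difference 0.41, 1.32-fold). Its second probe set was dim and read nearly the same on both arrays, with a log2 difference of 0.014. P2ry12, the purinergic receptor that guides microglial processes to damaged cells, read 95.3 and 118 (log2 difference 0.31). Both of these surface receptors were thus above the floor on each array and higher in the same pool.

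Gpr34, a lysophosphatidylserine receptor of microglia, read 18.4 and 27.8, a log2 difference of 0.59 and the highest of all members. It ranked 20 among the 18193 genes, but both intensities were far below the floor. Fcrls, an Fc receptor-like gene enriched in mouse microglia, read 122 and 141 (0.21), and Siglech, a sialic acid binding lectin of microglia and plasmacytoid dendritic cells, read 75.0 and 80.4 (0.10). Tmem119, a membrane protein widely used to mark resident microglia, went the other way at 107 and 101 (-0.078). The differences of the resting markers ran from -0.078 to 0.59. The lower end was smaller in size than the SD of 0.089 between probe sets of the same gene above the floor, and the upper end was a dim gene.

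The receptor and ligands that keep microglia alive differed little. Csf1r read 1120 and 1139 (0.024) in its brightest probe set, and its other probe sets, also above the floor, differed by 0.15 and 0.035. Csf1 read 115 and 120 (0.066). Il34, a CSF1R ligand made largely by neurons in the nervous system, was dim at 81.7 and 80.7 (-0.018). None of these 3 genes reached 1.2-fold in any probe set. The lineage transcription factors of the class were both dim: Spi1, which encodes PU.1, read 68.2 and 78.7 (0.21), and Irf8 read 59.0 and 66.9 (0.18), with 0.11 in its second probe set.

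**Figure D2:**
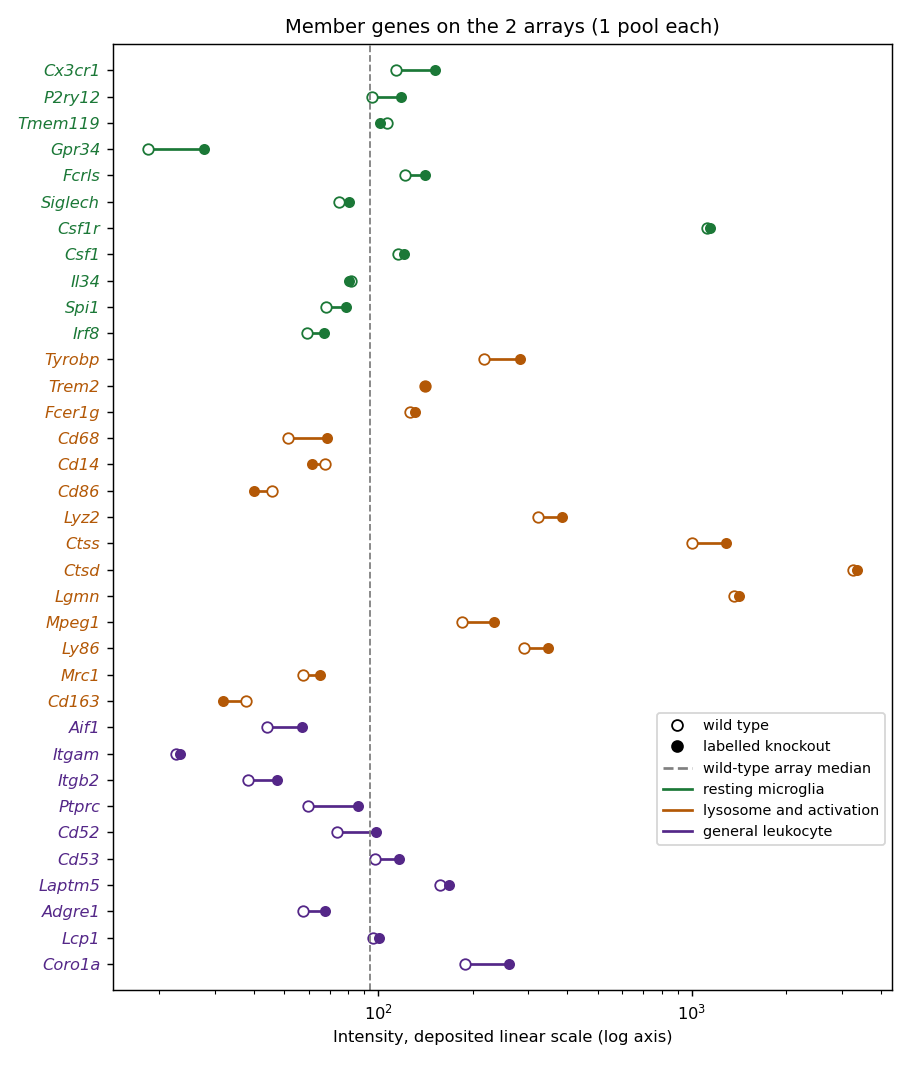
Intensities of the 35 members on a log axis, 1 row for each gene, with open circles for the wild-type array and filled circles for the array labelled knockout; colours give the 3 classes and the dashed line is the wild-type array median of 94.2. In 29 rows the filled circle lies to the right of the open one, and in 15 rows both circles lie left of the floor. Intensities of different genes are read by different probes and are not comparable with each other.

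The 14 genes of lysosome and activation had a median of 0.12, with 10 above 0 and 4 past 1.2-fold on the higher side. The class divided by brightness: its 9 genes above the floor had a median of 0.25 and its 5 dim genes one of -0.13. Tyrobp, the adaptor that carries the signal of TREM2 and related receptors, read 216 and 283 (log2 difference 0.39, 1.31-fold). Its partner receptor Trem2 read 141 on both arrays, and Fcer1g, the related adaptor of Fc receptors, read 126 and 131 (0.048). An exact tie such as that of Trem2 occurred in 711 genes, or 3.91% of all. How such ties arose was not analysed. The second probe set of Trem2 was dim at 36.9 and 34.6 (-0.091). Neither set of Trem2 reached the difference of Tyrobp, which was read by 1 probe set.

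Among the proteases, Ctss, the cathepsin typical of macrophages and microglia, read 1002 and 1286 (0.36, 1.28-fold). Ctsd, an aspartic protease of lysosomes in all cells, read 3273 and 3359 (0.038), and Lgmn, the asparaginyl endopeptidase of lysosomes, read 1361 and 1414 (0.055). Both are strongly expressed outside macrophages. Mpeg1, a pore-forming protein of macrophages, read 185 and 234 (0.34). Lyz2, a lysozyme of myeloid cells, read 324 and 385 (0.25), and Ly86, a partner of the receptor RP105, read 291 and 347 (0.25). Lyz2 and Ly86, together with the leukocyte gene Cd53, were just short of the 1.2-fold size, which is 0.26 on the log2 scale.

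The classical activation markers of the class were all dim. Cd68, a lysosomal membrane protein of phagocytes, read 51.3 and 68.7 (0.42). Cd14, the lipopolysaccharide co-receptor, read 67.5 and 61.5 (-0.13), and Cd86, a co-stimulatory ligand for T cells, read 45.6 and 40.2 (-0.18) with -0.082 in its second probe set. The scavenger receptors of perivascular and tissue macrophages gave opposite signs, with Mrc1 at 57.2 and 65.0 (0.18) and Cd163 at 37.9 and 31.9 (-0.25). Cd14, Cd86 and Cd163 were 3 of the 5 members below 0, beside Tmem119 and Il34.

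General leukocyte genes were above 0 in all 10 cases, where 47.3% of all genes were. The median of the class was 0.28, and 5 of its genes were past 1.2-fold on the higher side, where 2.23% of all genes were. Coro1a, an actin-binding protein of blood cells, read 189 and 260 (0.46, 1.38-fold). A further probe set of it, above the floor, read 114 and 148 (0.38), while a dim one read 9.14 and 7.26 (-0.33). Cd52, a small surface glycoprotein of lymphocytes and myeloid cells, read 73.7 and 98.5 (0.42), so that it passed the floor on the array labelled knockout alone. These were the 2 genes above the floor among the 5.

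The other genes of the class past 1.2-fold were dim. Ptprc, which encodes the pan-leukocyte phosphatase CD45, read 59.4 and 86.0 (0.53), whereas its second, very dim probe set differed by -0.11. Aif1, which encodes the microglial stain IBA1, read 44.0 and 57.2 (0.38), and Itgb2, the beta chain of leukocyte integrins, read 38.4 and 47.3 (0.30). Itgam, the CD11b chain that pairs with it, read 22.6 and 23.3 (0.044). Cd53, a tetraspanin, read 97.6 and 116 (0.25), Adgre1, which encodes the macrophage antigen F4/80, read 57.3 and 67.5 (0.24), and Lcp1, an actin bundler, read 96.1 and 100.3 (0.061). Laptm5, a lysosomal protein of leukocytes, read 157 and 168 (0.099) in its brightest probe set, and its 5 probe sets ran from -0.10 to 0.30. Cd52 and Laptm5 are the 2 members that lie on the chromosome that carries Mfsd2a.

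The choice of probe set changed some of these values. Of the 53 probe sets of the members, 26 were above the floor, and of those 23 were above 0, 2 below and 1 at 0. Of the 27 dim ones 17 were above 0 and 10 below. For 24 members there was only 1 probe set, so no second reading exists. When the probe sets of each gene were averaged, Cx3cr1 (0.21), Ptprc (0.21) and Coro1a (0.17) were no longer past 1.2-fold, and 9 of the 12 remained. Without the probe sets whose names end in _s_at, _x_at or _a_at, which can read several transcripts, 8 of the 12 remained among 29 members with a value. Coro1a was then read by its dim set (-0.33) and Ptprc by its very dim set (-0.11), and the leukocyte median was 0.053 over 8 genes.

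**Figure D3:**
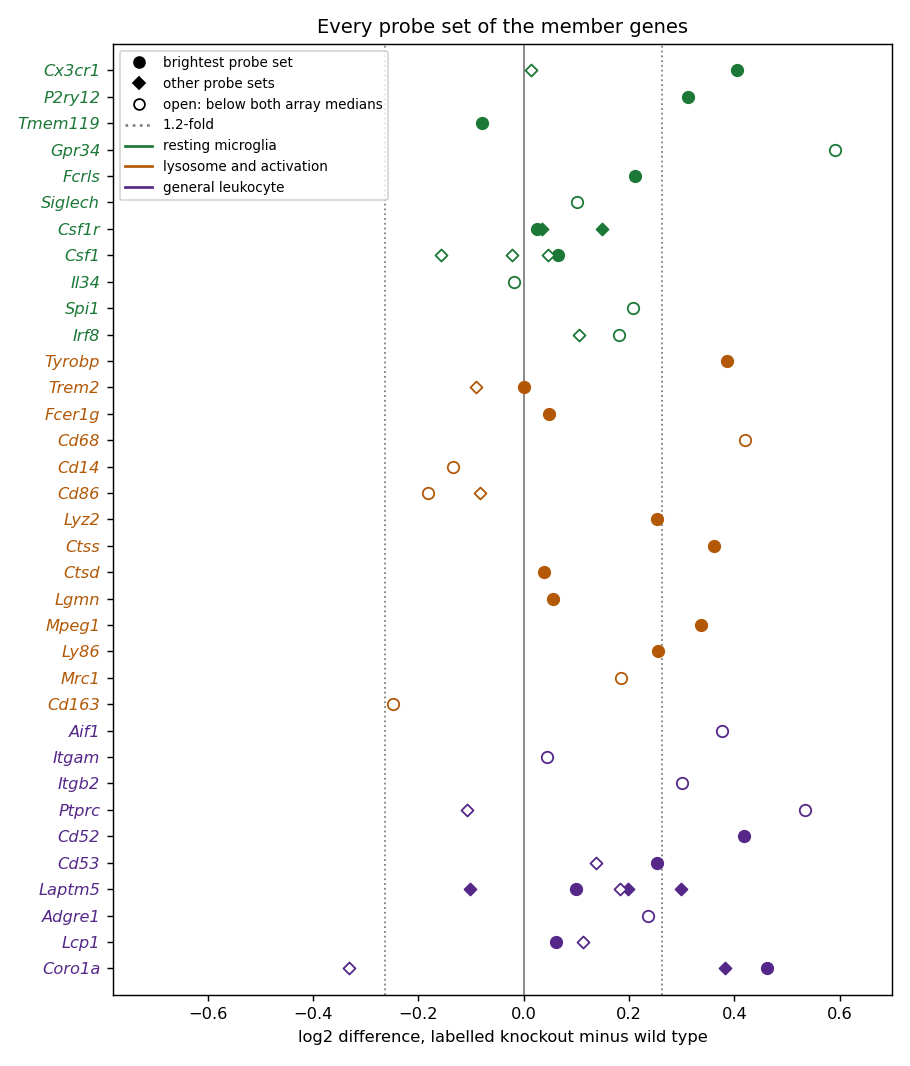
Log2 difference (labelled knockout minus wild type) of each of the 53 probe sets of the 35 members, 1 row for each gene; circles are the brightest probe set, diamonds the others, open symbols are dim on both arrays, and dotted lines mark 1.2-fold. Most filled symbols lie right of 0, and the probe sets of Coro1a spread from -0.33 to 0.46.

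Since PU.1, the product of Spi1, is known to act at promoters of many myeloid genes, the promoters of the members were searched for its core letters. RefSeq promoters of GRCm38.p6, from 250 bases before to 50 after the annotated start, were found for 24 of the 35 members and for 27025 genes in all. On either strand, GAGGAAGT was present in 2 of the 24 (8.33%) and in 3.69% of all genes, AGGAAGT in 7 (29.2%) and in 10.7%, and GGAAGT in 11 (45.8%) and in 26.5%, where each shorter motif lies inside the longer. Of the 8 members with a promoter that were at least 1.2-fold higher, 3 held AGGAAGT, and of the other 16 it was 4. The lysosomal E-box TCACGTGA, a palindrome, was present in 2 of the 24, Siglech and Ctsd, and in 1.12% of all genes. A match is a description of letters and not a bound site.

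The following 100-base stretches upstream of the start, written 5′ to 3′ on the gene's strand with the motif in capitals, show such matches. P2ry12 and Ptprc are shown as genes past 1.2-fold that hold AGGAAGT upstream of the start, Lyz2 as one just short of it, and Ctsd as the lysosomal gene with the E-box and a difference of 0.038. They lie at chr3:59262986-59263085 for P2ry12, chr1:138175339-138175438 for Ptprc, chr10:117282293-117282392 for Lyz2 and chr7:142387847-142387946 for Ctsd, all on the minus strand of GRCm38.p6.
P2ry12: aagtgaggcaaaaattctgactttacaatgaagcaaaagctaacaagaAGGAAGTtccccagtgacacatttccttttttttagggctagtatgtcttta
Ptprc: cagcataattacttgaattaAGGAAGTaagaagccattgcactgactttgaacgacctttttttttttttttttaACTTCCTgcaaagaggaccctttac
Lyz2: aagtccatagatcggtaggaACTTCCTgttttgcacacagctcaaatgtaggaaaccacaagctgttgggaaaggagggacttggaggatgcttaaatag
Ctsd: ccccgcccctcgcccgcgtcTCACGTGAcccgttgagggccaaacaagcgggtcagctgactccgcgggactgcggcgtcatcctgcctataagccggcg

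In P2ry12 the motif runs from 52 to 46 bases before the start. Ptprc holds 2 copies in opposite orientations, from 113 to 107 and from 58 to 52 bases before it. The copy of Lyz2, on the opposite strand, runs from 100 to 94, and the E-box of Ctsd from 99 to 92.

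Microglial genes outside the members did not share the lean as a group. Of 38 further microglial genes 35 had a probe set, and 16 of those were dim. Which cells of the eye cup made these transcripts was not analysed. The median of the 35 genes was 0, with 4 past 1.2-fold on the higher side and 1 on the lower. The complement genes stood out among them: C1qa read 278 and 379 (0.45), C1qb 328 and 426 (0.37) and C1qc 206 and 262 (0.34). These 3 lie on the chromosome of Mfsd2a. Hcls1, an actin regulator of blood cells, went the other way at 102 and 82.7 (-0.29), and Olfml3, another microglial marker, read 395 on both arrays. The share of this list that was at least 1.2-fold higher was 11.4%, against 34.3% of the members and 2.23% of all genes.

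Signals that act on microglia differed little. Of 16 ligands and receptors of microglial upkeep, 1 was at least 1.2-fold higher and 0 lower, with a median of 0.0087. Over all genes 2.23% were higher and 3.37% lower by that size. Cx3cl1, which encodes fractalkine, the ligand of CX3CR1, read 354 and 323 (-0.13), opposite in sign to its receptor. Csf2ra, a subunit of the receptor for the growth factor GM-CSF, read 166 and 217 (0.39) and was the 1 gene past the size. Nrros, a microglial protein that presents TGF-beta, read 124 and 142 (0.20), and the clearance receptor Mertk read 236 and 212 (-0.15).

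The lists of genes that microglia raise in disease models and of lysosomal genes that all cells share did not lean upward as a whole. Of 18 disease-associated microglia genes with a probe set, 1 was at least 1.2-fold higher and 1 lower, with a median of 0.011. The shares over all genes were 2.23% higher and 3.37% lower. Of the 18, 11 were dim (median 0.058) and 7 were above the floor (median -0.074). Which cells of the eye cup made these transcripts was not analysed. The 1 higher was the dim chemokine Ccl12 (31.3 and 44.1, 0.49) and the 1 lower was Cybb (40.1 and 32.4, -0.31), a subunit of the phagocyte oxidase. Apoe read 4631 and 4828 (0.060). Of 18 lysosome genes of all cells, 0 reached 1.2-fold in either direction and the median was -0.021, with Lamp1 at -0.032 and Lamp2 at -0.087.

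**Figure D4:**
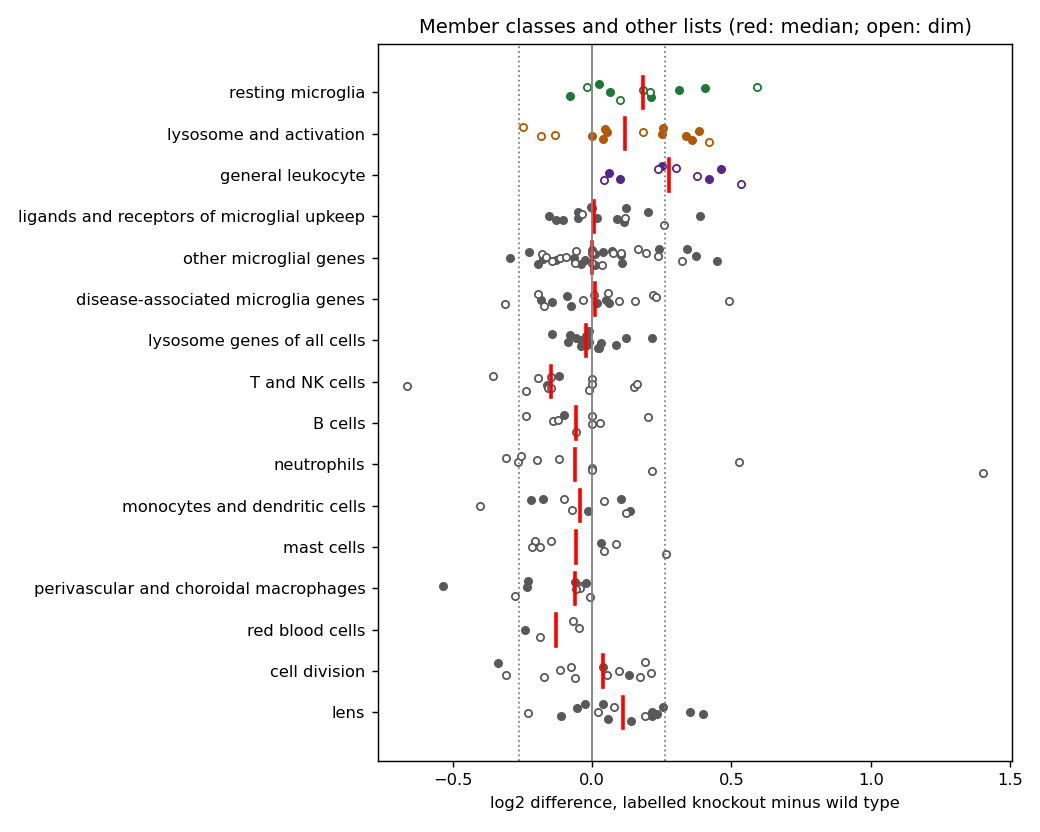
Log2 difference (labelled knockout minus wild type) of each gene in the 3 member classes and in 13 other gene lists; red bars are list medians, open circles are genes dim on both arrays, dotted lines mark 1.2-fold, and the vertical scatter within a row carries no value. The medians of the member classes (0.18, 0.12 and 0.28) lie to the right of those of the other lists, of which the lens list (0.11) is the highest.

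Many of the general leukocyte members are made by other blood cells too, so the markers of those cells were read beside them. In the lists of T and NK cells, B cells, neutrophils, monocytes and dendritic cells, and mast cells together, 51 genes had a probe set and 42 of them were dim. Of the 51, 3 were at least 1.2-fold higher and 5 lower, with a median of -0.10. All 8 were dim genes, of which 2.99% over the whole array were higher and 7.23% lower by that size, with a median of -0.052. The summed intensities of the 51 were 3096 and 2957. Such sums add readings of different probes and weigh bright genes most, so they are not amounts of a cell type. Among T and NK cell genes 2 of 14 were above 0, and 2 of 9 B cell genes were, where 47.3% of all genes were. Of these lists, 12 of the 14 and 8 of the 9 were dim. The sums were 956 and 854 for T and NK cells, with Zap70 alone at 419 and 374, and 443 and 420 for B cells. Cd3d read 59.5 and 37.5 (-0.67). Of 10 monocyte and dendritic cell genes 4 were above 0 (sums 813 and 786), and of 8 mast cell genes also 4 (sums 443 and 429).

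Neutrophil genes held the highest gene of the whole comparison. S100a8, a calcium-binding protein of neutrophils and activated myeloid cells, read 22.7 and 60.0 (1.40), and its partner S100a9 read 42.7 and 61.4 (0.53). Both were dim, as were all 10 genes of the list. The granule genes Camp (51.8 and 45.2), Ngp (36.6 and 29.6) and Elane (86.5 and 72.0) went the other way, and Mpo read 37.6 on both arrays. The list as a whole had 3 of 10 genes above 0, a median of -0.060 and summed intensities of 441 and 469. The third gene above 0 was Lcn2, at 48.9 and 56.7 (0.21).

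Markers of perivascular and choroidal macrophages were below 0 in 10 of 10 cases, where 8878 of all 18193 genes were. Their median was -0.061, and 2 of the 10 were at least 1.2-fold lower, where 3.37% of all genes were lower by that size. The summed intensities of the 10 were 1116 and 1012. The 5 of them above the floor had a median of -0.23 and the 5 dim ones had one of -0.042, beside 0.014 and -0.052 over all genes above the floor and all dim genes. Lyve1 read 303 and 298 (-0.022), Siglec1 109 and 93.2 (-0.23) and Cbr2 155 and 107 (-0.54). Of the members, Cd163 shares this sign and Mrc1 does not. Of the 4 red blood cell genes with a probe set all were below 0 (sums 242 and 212), with Alas2 at -0.24. Cell division genes had a median of 0.039. Of the 13, 0 were at least 1.2-fold higher and 2 lower, beside 2.23% and 3.37% of all genes. The part of these other cells in the members' values was not tested.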

How the data were processed

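The authors deposited linear intensities, namely 45101 probe set values on each of 2 arrays. Partek 6.6 and RMA (background correction, equalising of arrays and summarising of probes) are named in the submitters' processing notes; order and settings are not given in the sources used here. RMA compresses the differences of dim probe sets, and it removes any overall shift between pools. Dim genes still varied more here: the central 95% of their log2 differences ran from -0.34 to 0.28, against -0.21 to 0.23 above the floor. Scanner files and detection calls were not used here. The number of arrays limits the precision.

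Probe sets were named from the platform annotation (34958 with 1 symbol, 932 with several, 9211 with none), and 64 controls were left out. All 35 members matched the RefSeq gene table by Entrez identifier. Base 2 logarithms were taken. Genes were counted past 1.2-fold, with sizes of 1.5-fold and 1.3-fold, floors at the array median and the 70th percentile, the mean of probe sets, leaving out _s_at, _x_at and _a_at sets, and removal of a loess trend (span 0.3, 3 iterations) as alternatives. No test fits 1 array per genotype. The members and lists were chosen with earlier results of these data known. Genes planned for naming outside the members were Mfsd2a, Cx3cl1 and the C1q genes. For each list its first 2 genes and those above the floor with the largest differences were planned as well. Not all of these are named. Other genes named were chosen after their values were seen. Python 3.11.15, numpy 2.4.6, pandas 2.3.3, statsmodels 0.14.6 and matplotlib 3.10.9 were used, and the steps were tested on simulated data.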

Additional observations from a re-analysis of the deposited data

Results flagged for a closer look

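The count of 12 higher members uses 1 probe set for each gene. Outside that count, further probe sets of Coro1a, which is among the 12, and of Laptm5, which is not, differed by at least 1.2-fold. A probe set of Coro1a other than the brightest, above the floor, was higher on the array labelled knockout by a log2 difference of 0.38, while a dim one was lower (-0.33). A further probe set of Laptm5, whose name marks possible cross-hybridisation, was higher by 0.30, while the brightest set of that gene differed by 0.099 and another set above the floor by -0.10. The second, dim set of Ptprc also went the other way (-0.11).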

How the results depend on the processing

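No paired analysis was possible because there is 1 array per genotype. A floor or the removal of probe sets leaves fewer genes; beyond that, the cause was not tested. The count of 12 higher members was 1 at 1.5-fold, 7 at 1.3-fold, 7 over 20 members with the floor at the array median and 3 over 8 at the 70th percentile. It was 9 with the mean of probe sets and 14 with the loess trend removed, which added Cd53 and Adgre1. The count of 0 lower members was 1 without _s_at, _x_at and _a_at probe sets, where Coro1a (-0.33) and Ptprc (-0.11) reversed.

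A median is said to have moved when it changed by more than the technical error of a median over that many genes. That error was taken from the SD above the floor (0.089) for every list. The SD among dim probe sets was 0.16, so for lists of mostly dim genes this limit is too narrow. With the floor at the array median, the medians were 0.23 for all members, 0.14 for resting microglia and 0.25 for lysosome and activation. They were -0.074 for disease-associated genes, -0.23 for perivascular macrophages and 0.18 for lens. Those of B cells (-0.10), mast cells (0.030) and red blood cells (-0.24) rested on 1 gene each. At the 70th percentile the medians were 0.25 for all members, 0.25 for lysosome and activation and 0.057 for other microglial genes. They were -0.074 for disease-associated genes and 0.21 for lens. Those of resting microglia (0.024), leukocytes (0.46) and perivascular macrophages (-0.022) rested on 1 gene each. With the mean of probe sets the medians were 0.18 for all members, 0.14 for resting microglia and 0.20 for leukocytes. They were 0.026 for other microglial genes, -0.11 for mast cells and -0.014 for cell division. Without _s_at, _x_at and _a_at sets they were 0.18 for all members, 0.18 for lysosome and activation, 0.053 for leukocytes, 0.021 for lysosome genes of all cells, -0.16 for neutrophils, 0.066 for mast cells, -0.21 for perivascular macrophages, -0.069 for red blood cells and -0.060 for cell division. With the loess trend removed they were 0.23 for all members, 0.22 for resting microglia, 0.32 for leukocytes, 0.025 for other microglial genes, -0.11 for T and NK cells, -0.017 for B cells and -0.0075 for neutrophils.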

Other observations

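Within the list of other microglial genes, whose median was 0, receptors and signalling genes of phagocytes gave values of both signs. The activating Fc receptor gene Fcgr3 read 139 in wild type and 164 on the array labelled knockout (log2 difference 0.24), while the inhibitory Fcgr2b read 314 and 287 (-0.13). Downstream of the ITAM adaptors, the kinase gene Syk was dim at 45.0 and 50.5 (0.17) and the phospholipase gene Plcg2 read 98.3 and 85.9 (-0.19). Of the purinergic receptors next to P2ry12 in function, P2ry13 (63.2 and 72.2, 0.19) and P2ry6 (38.3 and 45.1, 0.24) were dim. The adaptor Fyb, also dim and 1 of the 4 genes of that list past 1.2-fold on the higher side, read 51.5 and 64.5 (0.32), and the transcription factor Runx1 read 153 and 135 (-0.17). These genes were picked with their values in view.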
